A study of Mus musculus with 4 samples.

Results

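In mouse E14 embryonic stem cells, 29 of 43496 Ensembl genes counted stood above random shRNA in each MERVL shRNA library by a set margin, while the random shRNA libraries lay close to each other. The 29 genes were chosen by a rule on the same estimated counts that are described here. Levels are CPM, the estimated count scaled to 1000000 of each library's total. The mean of the MERVL shRNA libraries had to be at least 5 CPM, the larger random shRNA library at most 1.3 times the smaller, and the lower MERVL shRNA library at least 1.6 times the higher random shRNA library. Before exclusions 32 genes met the rule. Of 5 symbols left out by name, Hmga2, Atp2a3 and Sall1 met it, and Sox1 and Bmp4 did not. Since the rule used the contrast itself, the levels, ratios and fold changes of the 29 genes are a description and carry no test.

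MERVL, also called MuERVL, is an endogenous retrovirus whose RNA is abundant in the mouse 2-cell embryo and in rare cells of embryonic stem cell cultures. Embryonic stem cells are kept by a pluripotency network of transcription factors, and many regulators of later lineages are held at low RNA levels in them. A short hairpin RNA is cut into a small RNA that directs cleavage of a matching transcript, and a hairpin of random sequence serves as its control.

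The MERVL shRNA group and the random shRNA group had 2 libraries each. Both were made from E14 cells labelled wild type, strain 12910la, grown on gelatin with 15% serum and 10 ng/ml mLIF. All cells received 1000 ng of pSuper puro plasmid, which carries the hairpin and puromycin resistance, so every library comes from cells that were transfected and drug selected. Selection began after 24 h with 1 µg/ml puromycin and lasted 4 days. The labels give neither hairpin sequence, and only this 1 cell line was used. They do not say whether replicates were separate cultures, so the spread between them may be technical. The question was which RNAs differ in abundance after MERVL knockdown.

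Library totals were 16067854 and 14570056 estimated counts with MERVL shRNA, against 15496921 and 11628887 with random shRNA. RNA of the targeted element, summed over 2277 copies, stood at 1152 and 555 CPM with MERVL shRNA, against 4716 and 1471 CPM with random shRNA. Random shRNA replicate 1 stood apart. Across 16353 features on log2(TMM-scaled CPM + 1), its Pearson r was 0.97 and 0.963 with the MERVL shRNA libraries and 0.972 with random shRNA replicate 2. Random shRNA replicate 2 reached 0.987 and 0.985 with the MERVL shRNA libraries, which had 0.995 between them. Features are not independent replicates. All 7 markers of embryonic stem cells were at 1 CPM or more in the mean of the libraries, and their summed level was 8250 and 8764 CPM with MERVL shRNA, against 7095 and 8349 CPM with random shRNA. The 6 markers of 2-cell-like cells summed to 228 and 126 CPM, against 1075 and 296 CPM. Of 9 feeder or fibroblast markers 3 reached 1 CPM, and Col3a1, Dcn, Lum and Postn were below 0.1 CPM in every library. The sum of those 9 was 168 and 174 CPM with MERVL shRNA, against 261 and 243 CPM with random shRNA. The part of these shifts in the levels below was not tested. In bulk RNA, fewer cells of a type and less RNA per cell cannot be told apart.

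By the rule, all 29 genes had both MERVL shRNA libraries above both random shRNA libraries. Among 14640 tested genes with a mean of at least 1 CPM, 18.0% had that order. The rule itself took 0.447% of the 7159 eligible genes, meaning those that met its level and steadiness conditions. The mirrored rule for lower genes, with the level set on the random shRNA libraries, took 91 genes, or 1.26%. In a fit of all features with the edgeR quasi-likelihood test and Benjamini-Hochberg adjustment, 0 of the 29 were called higher at an adjusted p under 0.05, against 0.00612% of all features. At an unadjusted p under 0.05 the fit marked 29 of 29, against 4.69% of all features. DESeq2 called 10 of the 29, against a background of 0.446% called higher, and limma-voom called 0, against a background of 0%. Those 10 were Pou2f3, Vax2, Shisa8, Slc5a11, Uckl1, Gpa33, Lgals3, Sri, Fam102a and Dnase2a. Nothing is read from these counts, because the same libraries selected the genes.

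**Figure D1:**
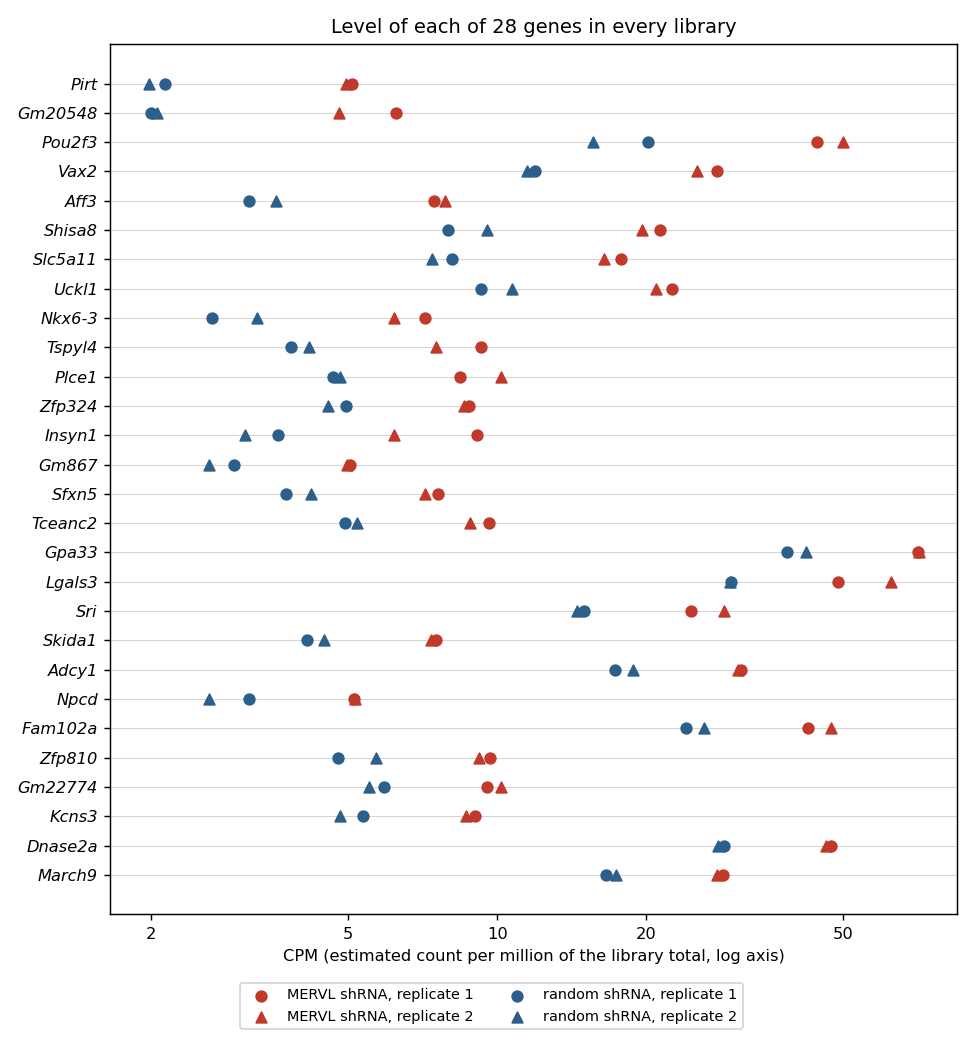
Level of each of 28 of the 29 genes in every library, in CPM on a log axis, with MERVL shRNA libraries in red, random shRNA libraries in blue, circles for replicate 1 and triangles for replicate 2. Genes run down from the largest ratio of the lower MERVL shRNA library to the higher random shRNA library, 2.32 for Pirt, to the smallest, that of March9. The groups do not overlap for any gene drawn, which the rule required.

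Among DNA-binding regulators, 3 genes described here encode homeodomain proteins that are known for lineages outside the pluripotent state. Pou2f3 (chr9:43123939-43210369, minus strand of GRCm38) encodes an octamer-binding POU factor required for tuft cells, a chemosensory epithelial type. It stood at 44.2 and 49.9 CPM with MERVL shRNA, against 20.2 and 15.6 CPM with random shRNA. The groups were far apart, and its random shRNA libraries were the least alike of all 29 genes, at a larger-to-smaller ratio of 1.298. The means were 47.1 ± 4.02 and 17.9 ± 3.28 CPM (SD, n = 2 each), the ratio of the closest libraries was 2.19 (95% counting interval 1.91 to 2.51), and the log2 fold change was 1.45 ± 0.19 (SE). Vax2 (chr6:83711264-83738313, plus strand) encodes a homeodomain factor of the ventral eye. It stood at 27.8 and 25.3 CPM with MERVL shRNA, against 11.9 and 11.5 CPM with random shRNA. Both pairs were tight beside the gap between them, with means of 26.5 ± 1.81 and 11.7 ± 0.271 CPM (SD, n = 2 each). The closest libraries differed 2.12-fold (1.78 to 2.55) and the log2 fold change was 1.24 ± 0.17.

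Nkx6-3 (chr8:23153269-23158948, plus strand), an NKX6 homeobox gene known from the stomach, had 7.16 and 6.18 CPM with MERVL shRNA, against 2.65 and 3.27 CPM with random shRNA. Its closest libraries differed 1.89-fold, with a wide counting interval of 1.28 to 2.84, and the log2 fold change was 1.23 ± 0.30. Counting intervals are exact and cover counting error only, since amplified reads are not independent molecules.

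Relatives could be tested for Pou2f3 and Nkx6-3 but not for Vax2. Those tested stood less far apart between the groups than the gene they are related to. The rule chose the genes and not their relatives for a gap between the groups, so this follows largely from selection. The values of the relatives are given as a description only. Pou2f1, the broadly expressed octamer factor, was at 35.7 and 28.4 CPM with MERVL shRNA, against 41.6 and 33.7 CPM with random shRNA, a log2 fold change of -0.18 ± 0.18. Its groups overlapped. Per kb of exon, Pou2f3 averaged 15.2 CPM with MERVL shRNA and 5.79 CPM with random shRNA, and Pou2f1 averaged 1.93 and 2.27 CPM in the same order. Pou2f2 had a log2 fold change of -0.12 ± 0.33. Nkx6-2 had 6.10 and 6.52 CPM with MERVL shRNA, against 5.65 and 5.89 CPM with random shRNA, and a log2 fold change of 0.19 ± 0.26. Vax1 and Nkx6-1 had too few counts to be tested. The differences between a gene and its relatives were not tested.

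A further 6 genes belong to transcription or chromatin by their protein families. Aff3 (chr1:38177326-38664955, minus strand), a nuclear AF4/FMR2 family protein and relative of the scaffolds of elongation complexes, is the longest of the 29 at 487630 bp. It had 7.47 and 7.86 CPM with MERVL shRNA, against 3.16 and 3.57 CPM with random shRNA. The pairs were each close together, the closest libraries differed 2.09-fold (1.44 to 3.01) and the log2 fold change was 1.23 ± 0.28. Its relative Aff1 had 81.5 and 89.8 CPM with MERVL shRNA, against 65.0 and 62.4 CPM with random shRNA, a log2 fold change of 0.48 ± 0.14 without overlap. Aff4 had a log2 fold change of 0.27 ± 0.19. Tceanc2 (chr4:107134155-107179116, minus strand), which carries domains of the elongation factor TFIIS, had 9.64 and 8.81 CPM, against 4.93 and 5.20 CPM with random shRNA. Skida1 (chr2:18040676-18049051, minus strand), named for its SKI/DACH domain, had 7.53 and 7.34 CPM, against 4.13 and 4.47 CPM with random shRNA. For both the libraries of a group differed little, and the log2 fold changes were 0.93 ± 0.24 for Tceanc2 and 0.85 ± 0.26 for Skida1.

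The zinc finger genes Zfp324 (chr7:12965838-12974236, plus strand) and Zfp810 (chr9:22276748-22307648, minus strand) encode predicted DNA-binding proteins. Zfp324 had 8.78 and 8.58 CPM with MERVL shRNA, against 4.95 and 4.56 CPM with random shRNA. Zfp810 had 9.68 and 9.20 CPM with MERVL shRNA, against 4.78 and 5.68 CPM with random shRNA. Their log2 fold changes were 0.92 ± 0.25 each, and in neither did the groups overlap. The symbol list of Zfp genes had 373 tested members with a median log2 fold change of 0.04. In 77 of them both MERVL shRNA libraries were above both random shRNA libraries, beside 18.0% of all tested genes at 1 CPM or more. On this list edgeR called 0, against 1 of all 16353 features.

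Tspyl4 (chr10:34297442-34301320, plus strand) is a TSPY-like gene of the nucleosome assembly protein family. It had 9.27 and 7.52 CPM with MERVL shRNA, against 3.84 and 4.17 CPM with random shRNA. The lower MERVL shRNA library was 1.80 times the higher random shRNA library (1.29 to 2.62), and the log2 fold change was 1.13 ± 0.27. Its relative Tspyl1, 12.2 kb away, had 90.7 and 93.6 CPM with MERVL shRNA, against 70.7 and 80.7 CPM with random shRNA, a log2 fold change of 0.34 ± 0.14. The other TSPY-like genes tested were closer to 0, Tspyl5 at 0.27 ± 0.46, Tspyl3 at 0.18 ± 0.29 and Tspyl2 at 0.11 ± 0.16. The RefSeq promoter window of Tspyl4, 250 bases before to 50 after the start, is shown because of the 19 member windows it alone holds the palindrome TGACGTCA, the core to which CREB-type factors bind. It spans chr10:34297171-34297470 on the plus strand of GRCm38.p6, is printed 5′ to 3′, and the capitals mark the motif.
Tspyl4: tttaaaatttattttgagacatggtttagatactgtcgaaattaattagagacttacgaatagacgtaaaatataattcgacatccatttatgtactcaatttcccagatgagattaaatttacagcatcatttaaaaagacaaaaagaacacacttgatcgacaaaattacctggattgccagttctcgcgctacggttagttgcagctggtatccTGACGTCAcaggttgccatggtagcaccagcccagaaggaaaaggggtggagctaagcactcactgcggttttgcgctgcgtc
The same letters occur in 3.71% of the 5496 eligible promoter windows. A match of letters is no evidence of binding.

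Transport, channel and synapse genes formed another 6. Slc5a11 (chr7:123214780-123273253, plus strand) encodes a sodium-coupled inositol transporter. It had 17.8 and 16.4 CPM with MERVL shRNA, against 8.10 and 7.40 CPM with random shRNA. The pairs were tight, with means of 17.1 ± 1.00 and 7.75 ± 0.497 CPM (SD, n = 2 each), a closest ratio of 2.02 (1.62 to 2.52) and a log2 fold change of 1.19 ± 0.19. Its 4 tested SLC5 relatives included Slc5a3, another inositol transporter, at a log2 fold change of -0.49 ± 0.24, and Slc5a6, a vitamin transporter, at -0.20 ± 0.40. Over the symbol list of solute carriers, 105 tested genes had a log2 fold change above 0, the median was -0.06, and edgeR called 0.

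Sfxn5 (chr6:85213049-85333422, minus strand) encodes a sideroflexin, a family of mitochondrial carriers. It had 7.59 and 7.14 CPM with MERVL shRNA, against 3.74 and 4.21 CPM with random shRNA, and a log2 fold change of 0.95 ± 0.27. The groups stood apart by 1.69-fold at their closest (1.2 to 2.43). Its relative Sfxn1, a mitochondrial serine transporter, had a log2 fold change of 0.32 ± 0.14. The Sfxn5 promoter window is shown because it alone among the 19 held the octamer ATGCAAAT, the site class of POU factors. The octamer was found in 1.2% of eligible windows, and here too a match of letters is no evidence of binding. The window is chr6:85333373-85333672 on the minus strand of GRCm38.p6, and capitals mark the octamer, read on the opposite strand as ATTTGCAT, and a CCAAT box on either strand.
Sfxn5: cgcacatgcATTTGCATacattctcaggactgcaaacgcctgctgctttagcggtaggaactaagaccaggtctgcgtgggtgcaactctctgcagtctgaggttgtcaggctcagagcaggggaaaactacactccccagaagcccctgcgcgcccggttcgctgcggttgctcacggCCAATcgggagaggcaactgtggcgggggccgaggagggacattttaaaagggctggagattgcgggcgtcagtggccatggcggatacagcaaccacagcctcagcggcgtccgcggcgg

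Kcns3 (chr12:11090202-11151056, minus strand) encodes a silent potassium channel subunit that modifies other channels. It had 9.02 and 8.65 CPM with MERVL shRNA, against 5.36 and 4.82 CPM with random shRNA, and a log2 fold change of 0.85 ± 0.25. Kcns1, of the same subfamily, was the other way round, at 0.498 and 0.275 CPM with MERVL shRNA, against 1.81 and 2.15 CPM with random shRNA. Neither gene's groups overlapped, and neither was called by edgeR, which called 1 of all 16353 features. Of 35 potassium channel genes tested, Kcns3 included, 20 had a log2 fold change above 0, with a median of 0.12 and 0 called. Pirt (chr11:66911981-66929876, plus strand), a membrane protein that regulates TRP channels in sensory neurons, had 5.10 and 4.94 CPM with MERVL shRNA, against 2.13 and 1.98 CPM with random shRNA. Pirt tops the order of ratios at 2.32, and its counts of 82.0 and 72.0 against 33.0 and 23.0 give a wide interval, 1.52 to 3.62. Its log2 fold change was 1.34 ± 0.33.

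Shisa8 (chr15:82206168-82212815, minus strand) and Insyn1 (chr9:58488603-58499780, plus strand) are known from synapses, Shisa8 as an auxiliary protein of AMPA receptors and Insyn1 at inhibitory synapses. Shisa8 had 21.3 and 19.6 CPM with MERVL shRNA, against 7.94 and 9.55 CPM with random shRNA. Its groups were well apart, the closest libraries differed 2.05-fold (1.64 to 2.58), and the log2 fold change was 1.29 ± 0.19. Insyn1 had 9.09 and 6.18 CPM with MERVL shRNA, against 3.61 and 3.10 CPM with random shRNA. Its MERVL shRNA libraries were the least alike of all 29 genes, at a larger-to-smaller ratio of 1.47, and its log2 fold change was 1.23 ± 0.32. Shisa2, a family member that acts in Wnt and FGF signalling, had 23.8 and 28.6 CPM with MERVL shRNA, against 14.3 and 10.4 CPM with random shRNA. Its random shRNA libraries differed 1.377-fold, past the limit of 1.3, so it was not among the 29. Shisa5 and Shisa7 had log2 fold changes of -0.20 and -0.25. The Shisa8 promoter window is shown for its cluster of GC boxes. That motif was in 11 of the 19 windows of the 29 genes (57.9%), against 68.7% of eligible windows. The Shisa8 window is chr15:82212766-82213065, minus strand of GRCm38.p6, and capitals mark GGGCGG and CCAAT on either strand.
Shisa8: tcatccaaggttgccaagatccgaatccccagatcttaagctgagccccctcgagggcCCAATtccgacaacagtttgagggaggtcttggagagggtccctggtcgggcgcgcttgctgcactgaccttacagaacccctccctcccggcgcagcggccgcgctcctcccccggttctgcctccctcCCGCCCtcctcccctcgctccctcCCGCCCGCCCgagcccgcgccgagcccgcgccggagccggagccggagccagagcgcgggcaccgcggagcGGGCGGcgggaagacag

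Signalling enzymes and calcium binding were represented by 3 genes. Adcy1 (chr11:7063489-7178506, plus strand), the calcium and calmodulin stimulated adenylyl cyclase, had 31.1 and 30.7 CPM with MERVL shRNA, against 17.3 and 18.8 CPM with random shRNA. Both pairs were tight and the log2 fold change was 0.83 ± 0.15. Adcy7, another cyclase, was on the other side, at 4.17 and 3.23 CPM with MERVL shRNA, against 9.29 and 8.0 CPM with random shRNA. Its log2 fold change was -1.17 ± 0.28, with no overlap. Adcy3 had 19.5 and 19.9 CPM, against 17.2 and 18.6 CPM with random shRNA, and 0.19 ± 0.16. Of the 6 other adenylyl cyclases tested, 3 had a log2 fold change above 0.

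Plce1 (chr19:38481109-38785030, plus strand) encodes a phospholipase C that binds Ras family proteins. It had 8.40 and 10.2 CPM with MERVL shRNA, against 4.65 and 4.82 CPM with random shRNA, and a log2 fold change of 1.03 ± 0.26. Of the 10 other phospholipases C tested, 3 were above 0, including Plcb4 at 0.67 ± 0.16 and Plcb3 at 0.05 ± 0.13. Sri (chr5:8046078-8069379, plus strand) encodes sorcin, a penta-EF-hand calcium sensor. It had 24.6 and 28.7 CPM with MERVL shRNA, against 15 and 14.5 CPM with random shRNA. The gap between the groups was larger than the spread in either, with a closest ratio of 1.64 (1.40 to 1.94) and a log2 fold change of 0.92 ± 0.17. Among other penta-EF-hand genes, Capns1, the calpain small subunit, had 412 and 459 CPM with MERVL shRNA, against 393 and 374 CPM with random shRNA, a log2 fold change of 0.24 ± 0.15. Gca had -0.44 ± 0.20.

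**Figure D2:**
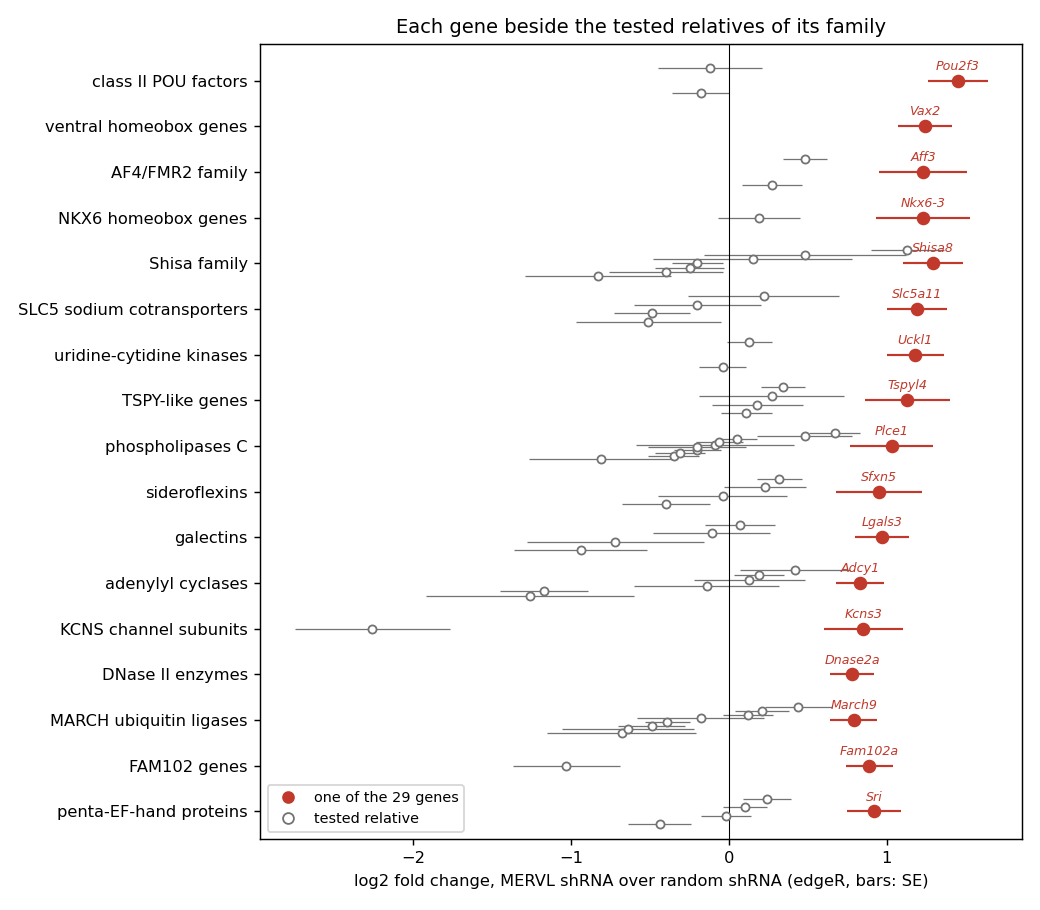
Log2 fold change of MERVL shRNA over random shRNA from edgeR, with bars of 1 SE, for genes with named relatives (filled red) and their tested relatives (open circles), 1 family per row. The genes chosen by the rule lie from 0.78 to 1.45 in this plot, and relatives lie on both sides of 0, from Kcns1 at -2.26 to Shisa2 at 1.13. Paralog families were chosen after the 29 genes were seen, and rows without an open circle had no tested relative.

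Surface, lysosomal and other enzymes made up 6 genes, among them the highest CPM of the 29, not scaled to length. Gpa33 (chr1:166130238-166166510, plus strand), the A33 antigen of intestinal epithelium, had 70.9 and 71.1 CPM with MERVL shRNA, against 38.5 and 42.0 CPM with random shRNA. The MERVL shRNA libraries were almost equal, with means of 71.0 ± 0.0858 and 40.3 ± 2.45 CPM (SD, n = 2 each) and a log2 fold change of 0.88 ± 0.13. On counts of 1140 and 1036 against 597 and 488, its closest ratio of 1.69 had the interval 1.52 to 1.88. Lgals3 (chr14:47367751-47386160, plus strand), galectin-3, a lectin that binds galactosides, had 48.9 and 62.5 CPM with MERVL shRNA, against 29.7 and 29.5 CPM with random shRNA. Here the random shRNA libraries were almost equal, at a ratio of 1.005, while MERVL shRNA replicate 2 was 1.28 times replicate 1. Its log2 fold change was 0.97 ± 0.17. Per kb of exon, Lgals3 averaged 30.0 and Gpa33 25.9 CPM with MERVL shRNA, against 15.9 CPM for Lgals3 and 14.7 CPM for Gpa33 with random shRNA. Lgals1, the other well-known galectin, had 14.7 and 16.9 CPM with MERVL shRNA, against 10.9 and 24.9 CPM with random shRNA, so its groups overlapped. Lgals4 had a log2 fold change of -0.94 ± 0.42, and 1 of the 4 other galectins tested was above 0.

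The promoter windows of Gpa33 and Lgals3 are set side by side because these genes had the highest CPM of the 29 and their windows differ in make-up. Gpa33 is chr1:166129971-166130270 and Lgals3 is chr14:47373610-47373909, both on the plus strand of GRCm38.p6. Capitals mark CCAAT and GGGCGG on either strand.
Gpa33: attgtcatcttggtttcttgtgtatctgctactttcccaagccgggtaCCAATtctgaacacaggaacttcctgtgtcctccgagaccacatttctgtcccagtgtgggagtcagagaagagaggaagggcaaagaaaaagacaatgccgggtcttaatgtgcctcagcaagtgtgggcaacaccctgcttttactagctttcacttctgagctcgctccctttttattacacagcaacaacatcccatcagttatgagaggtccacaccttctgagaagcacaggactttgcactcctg
Lgals3: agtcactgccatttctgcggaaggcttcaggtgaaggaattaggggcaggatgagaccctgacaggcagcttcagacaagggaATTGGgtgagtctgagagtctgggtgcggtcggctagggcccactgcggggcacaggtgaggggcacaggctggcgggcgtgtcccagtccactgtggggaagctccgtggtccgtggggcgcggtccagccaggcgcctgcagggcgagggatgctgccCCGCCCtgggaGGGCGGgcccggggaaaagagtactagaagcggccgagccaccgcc
The observed over expected CpG was 0.234 in the Gpa33 window and 0.563 in the Lgals3 window, with GC contents of 48.0% and 67.0%. Only the Lgals3 window of this pair holds GC boxes.

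Dnase2a (chr8:84908560-84922915, plus strand), the lysosomal acid DNase, had 47.2 and 46.1 CPM with MERVL shRNA, against 28.7 and 27.9 CPM with random shRNA. Both pairs differed by little, and the log2 fold change of 0.78 ± 0.14 was the lowest of the 29. Its paralog Dnase2b was listed at 0. Uckl1 (chr2:181569149-181584892, minus strand), a uridine-cytidine kinase-like gene, had 22.5 and 20.9 CPM with MERVL shRNA, against 9.29 and 10.7 CPM with random shRNA. Its closest ratio was 1.96 (1.58 to 2.43) and its log2 fold change 1.18 ± 0.18. Of its catalytic relatives, Uck2 had 221 and 236 CPM with MERVL shRNA, against 214 and 222 CPM with random shRNA, a log2 fold change of 0.13 ± 0.14, and Uck1 had -0.04 ± 0.15. The groups of Uck2 overlapped.

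March9 (chr10:127055011-127060184, minus strand), a membrane-bound RING-CH ubiquitin ligase, had 28.6 and 27.8 CPM with MERVL shRNA, against 16.6 and 17.4 CPM with random shRNA. Its closest ratio was the smallest of the 29, just at the threshold of 1.6, and its log2 fold change was 0.79 ± 0.15. In its family, March5, a ligase of the mitochondrial outer membrane, had a log2 fold change of -0.39 ± 0.14 and March2 one of 0.44 ± 0.21, with 3 of the 8 other ligases tested above 0. Fam102a (chr2:32535332-32569756, plus strand) had 42.5 and 47.3 CPM with MERVL shRNA, against 24.1 and 26.2 CPM with random shRNA, and a log2 fold change of 0.89 ± 0.15. Its paralog Fam102b lay on the other side, at 2.93 and 2.13 CPM with MERVL shRNA, against 5.81 and 4.90 CPM with random shRNA, a log2 fold change of -1.03 ± 0.34.

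The last 4 genes carry placeholder or readthrough names, and reads of other genes can fall in them. The sources used here do not say whether counting used strand. Gm20548 (chr5:101837416-101846410, plus strand), an antisense RNA, had 6.25 and 4.79 CPM with MERVL shRNA, against 2.00 and 2.06 CPM with random shRNA. It shares exonic bases with Wdfy3 on the other strand, which had 38.5 and 35.2 CPM with MERVL shRNA, against 38.5 and 24.4 CPM with random shRNA. Gm20548 has a fold change of 1.49 ± 0.34 on the log2 scale and Wdfy3 one of 0.28 ± 0.23. Gm22774 (chr17:6131836-6131944, minus strand) is annotated as a miRNA of 109 bp. It had 9.54 and 10.2 CPM with MERVL shRNA, against 5.91 and 5.52 CPM with random shRNA. It shares 91 bases on the same strand with the processed pseudogene Gm15590, at 446 and 483 CPM with MERVL shRNA, against 355 and 324 CPM with random shRNA, so its counts are uncertain.

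Npcd (chr15:79789675-79834237, minus strand) is a locus that runs across Cbx6 and Nptxr on the same strand. It had 5.13 and 5.15 CPM with MERVL shRNA, against 3.16 and 2.62 CPM with random shRNA. Cbx6, a chromobox protein of Polycomb complexes, shares 563 exonic bases with it and had 111 and 105 CPM with MERVL shRNA, against 75.1 and 67.9 CPM with random shRNA, a log2 fold change of 0.65 ± 0.14. Nptxr, which shares 890 bases, had overlapping groups at 14.2 and 14.5 CPM, against 10.6 and 16.3 CPM with random shRNA. How the reads of this locus were divided is not known, so Npcd is uncertain. Gm867 (chr10:75937723-75940672, minus strand) had 5.04 and 4.98 CPM with MERVL shRNA, against 2.94 and 2.62 CPM with random shRNA, and shares 25 exonic bases with Chchd10 on the other strand. Dnase2a and Tspyl4 also shared over 1000 exonic bases with a gene of the other strand. For Dnase2a this was Mast1, with 1616 bases, at 16.6 and 12.5 CPM with MERVL shRNA, against 6.74 and 11.3 CPM with random shRNA. For Tspyl4 it was Gm47512, with 1466 bases, at 1.62 and 1.82 CPM, against 0.936 and 0.559 CPM with random shRNA. In all, 8 of the 29 shared exonic bases with another gene at 1 CPM or more, Uckl1 and Tceanc2 among them. Vax2os, the antisense RNA inside Vax2, shared no exonic base with it and had 21.6 and 21.0 CPM with MERVL shRNA, against 12.3 and 15.6 CPM with random shRNA.

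Across the 29 genes, the ratio of the lower MERVL shRNA library to the higher random shRNA library had a median of 1.69, and 7 genes reached 2. The log2 fold changes ran from 0.78 to 1.49 with a median of 0.95, and SEs from 0.13 to 0.34, while the median of all features was -0.01. All 29 passed the filter on low counts. Without random shRNA replicate 1, the library that stood apart, the median of the 29 was 1.01. The rule set the ratio of the closest libraries at 1.6 or more, so intervals above 1 follow largely from selection and add no support. Counting error alone put the interval of the ratio above 1 for all 29, but above 1.6 only for Pou2f3, Vax2, Shisa8 and Slc5a11. The remaining 25 therefore sit within counting error of the threshold that chose them. The MERVL shRNA mean ranged from 5.01 to 71.0 CPM with a median of 9.44, against 38.8 CPM for the eligible genes. Of the 838 eligible genes with a MERVL shRNA mean from 5 to under 10 CPM, 16 were members (1.91%). Of the 1153 from 10 to under 20 CPM, 2 were members (0.173%), and of the 5168 from 20 CPM up, 11 were members (0.213%).

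**Figure D3:**
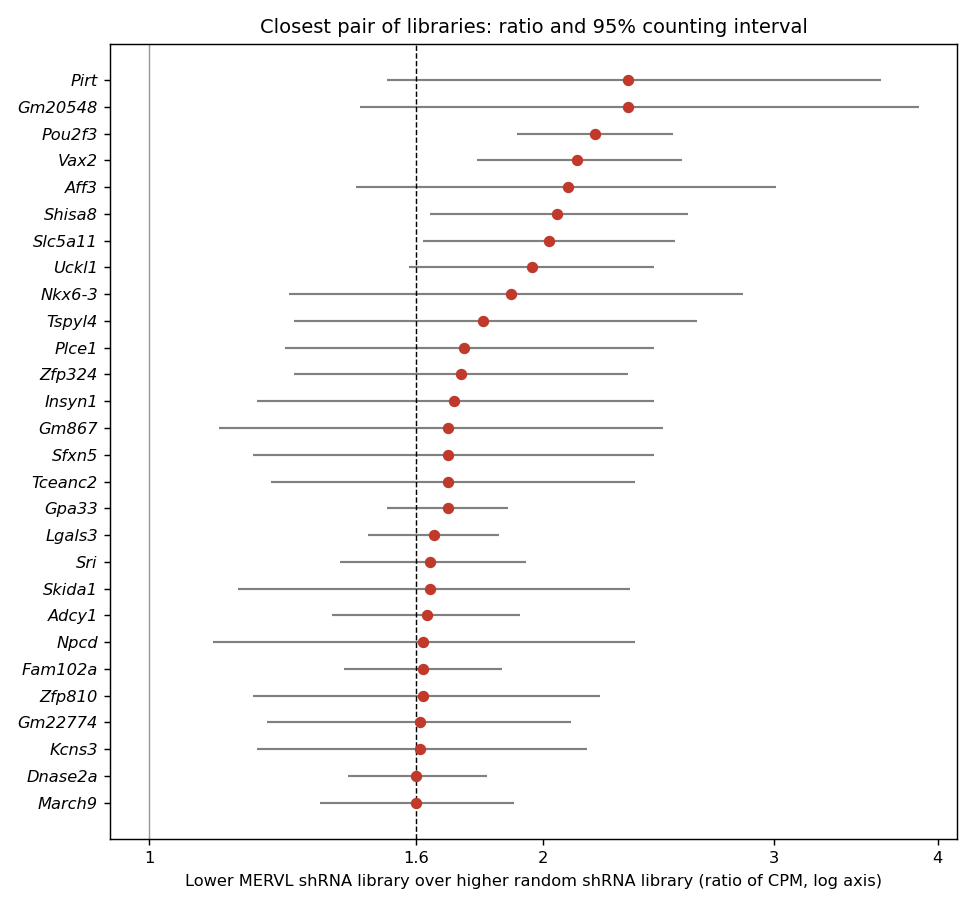
Ratio of CPM in the lower MERVL shRNA library to the higher random shRNA library for 28 of the 29 genes, with bars for the 95% counting interval, on a log axis. The dashed line is the threshold of 1.6 and the grey line is equality. Only Pou2f3, Vax2, Shisa8 and Slc5a11 have a whole interval above the dashed line.

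A limit on the ratio between replicates was set for random shRNA only. The fold condition used the lower MERVL shRNA library, so spread between the MERVL shRNA libraries also counted against a gene. The larger MERVL shRNA library was at most 1.1 times the smaller in 18 of 29 genes (62.1%), against 64.9% of eligible genes. Between the random shRNA libraries this held for 18 of 29 (62.1%), against 40.9% of eligible genes. The cut at 1.3 applied to both sets. The fold condition, set against the higher random shRNA library, applied to the 29 only and favours a close pair. The difference in shares is therefore not read as a trait of the genes. MERVL shRNA replicate 2 was above replicate 1 in 10 of 29 (34.5%, eligible genes 47.4%), and random shRNA replicate 2 above replicate 1 in 15 of 29 (51.7%, eligible genes 47.9%). Without the steadiness condition 58 genes met the level and fold conditions, and 26 of them had a random shRNA ratio above 1.3.

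Genes on both sides of the thresholds are given by their values. At the fold threshold, March9 (1.6), Dnase2a (1.604), Kcns3 (1.615) and Gm22774 (1.615) lay just inside, and Apoe (1.599), Slc37a1 (1.579), Ndufaf3 (1.576) and Ccdc84 (1.557) just outside. Apoe, the lipid carrier apolipoprotein E, had 803 and 812 CPM with MERVL shRNA, against 399 and 503 CPM with random shRNA. At the random shRNA ratio, Pou2f3 (1.298), Nkx6-3 (1.235), Npcd (1.206) and Shisa8 (1.203) lay just inside. Just outside were Mcf2 (1.345), Shisa2 (1.377) and Catip (1.377). Mcf2, a guanine nucleotide exchange factor, had 50.5 and 46.0 CPM with MERVL shRNA, against 20.9 and 28.1 CPM with random shRNA. Catip was far more separated than any of the 29, at 42.5 and 45.6 CPM with MERVL shRNA, against 1.94 and 2.67 CPM with random shRNA. Of the genes left out by name, Hmga2, an architectural chromatin protein, had 29.7 and 30.1 CPM with MERVL shRNA, against 7.78 and 8.43 CPM with random shRNA.

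The 29 genes were scattered over 15 chromosomes with at most 3 on any of them, and the closest pair, Sfxn5 and Vax2, lay 1.47 Mb apart. Of these, 27 were protein coding (93.1%, eligible genes 94.3%). Median exon length was 3879 bp, against 4521 bp for eligible genes. The longest transcripts had a median GC content of 53.4%, from 40.2% in Sri to 65.9% in Shisa8, against 49.3% for eligible genes.

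Neighbouring genes were set beside the 29 for the context of each locus. Within 100 kb, 48 tested genes with a mean of at least 1 CPM were the nearest on either side that did not overlap the gene itself. Both MERVL shRNA libraries were above both random shRNA libraries in 11 of the 48, beside 18.0% of all tested genes at 1 CPM or more. Their median log2 fold change was 0.15 and 29 of 48 were above 0. The highest was Cds1 near Gm20548 at 0.87, with random shRNA libraries at 2.39 and 7.18 CPM. The lowest was Igfbp3, an IGF-binding protein next to Adcy1, with 11.9 and 11.7 CPM with MERVL shRNA, against 61.7 and 23.1 CPM with random shRNA, a log2 fold change of -1.80. A930004D18Rik, 2.94 kb from Skida1, had 0.63 ± 0.22. Tested genes that overlap one of the 29 are not among the 48. Their log2 fold changes ran from -0.14 ± 0.20 for Zfp512b at Uckl1 to 1.28 ± 0.47 for Gm47512 at Tspyl4.

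**Figure D4:**
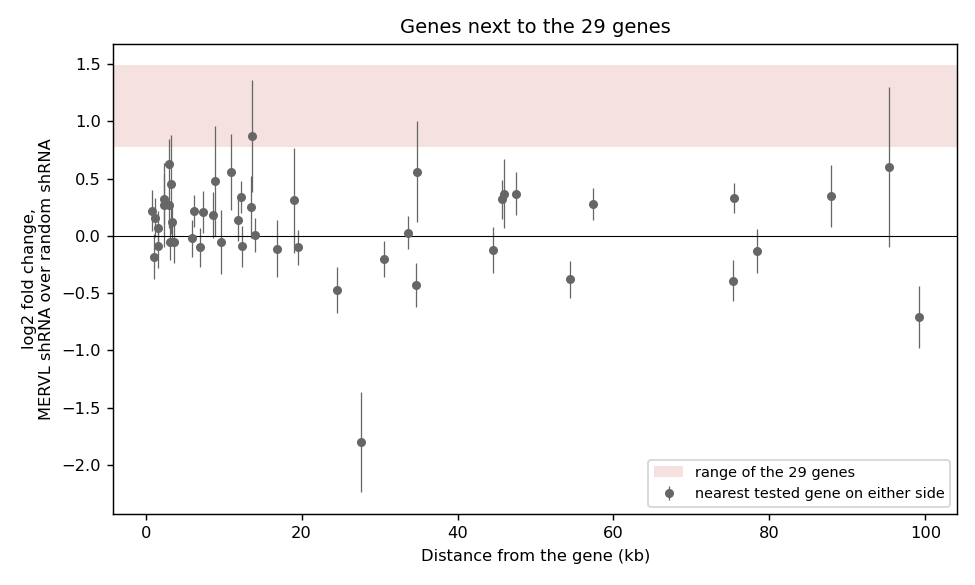
Log2 fold change of MERVL shRNA over random shRNA (edgeR, bars of 1 SE) for the nearest tested gene on either side of each of the 29 genes, against the distance to that gene in kb. Genes that overlap one of the 29, genes with a mean under 1 CPM and genes beyond 100 kb are not drawn. The shaded band spans the 29 genes, from 0.78 to 1.49, and 1 of the 48 neighbours drawn, Cds1 at 0.87, lies inside it.

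Promoter windows were available in RefSeq for 19 of the 29 genes (65.5%) and for 5496 of the 7159 eligible genes. Those of Pirt, Gm20548, Pou2f3, Vax2, Nkx6-3, Skida1, Npcd, Gm22774 and March9 were not among them. Since under 80% of the 29 have a window, a comparison of promoter make-up is void, and the shares of motif matches are only a description. On both strands, CCAAT was found in 10 of 19 windows (52.6%, eligible 40.6%), GGGCGG in 11 (57.9%, eligible 68.7%), CCGGAAG in 2 (10.5%, eligible 22.0%) and CACGTG in 1, that of Adcy1 (5.26%, eligible 11.0%). TATAAA, CGCATGCG and TCAAGGTCA occurred in 0 of 19, against 5.75%, 4.89% and 0.237% of eligible windows. Motifs may overlap one another, as in the Tceanc2 window, where a GC box runs into a CCAAT box.

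Of 53 gene lists of pathways, lineages and cell states, 3 held any of the 29 genes. They were solute carriers with Slc5a11, potassium channels with Kcns3, and Zfp genes with Zfp324 and Zfp810. These lists had 109, 6 and 181 eligible genes in that order, and the rule took 0.447% of all eligible genes before exclusions. The members of lists were counted after exclusions, so Hmga2, Atp2a3 and Sall1, which met the rule, could not count on any list. The lists of naive and of core pluripotency held none, but with only 8 and 13 eligible genes this says little. Their median log2 fold changes were 0.25 over 20 tested genes and -0.01 over 20. The list of 2-cell genes had a median of -2.0 over 17 tested genes, with 0 of 17 above 0. As 0 of its genes met the level and steadiness conditions, it could hold none of the 29. Polycomb genes had a median of 0.02 over 23.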

How the data were processed

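RNA-seq of E14 cells with MERVL shRNA or random shRNA gave 4 libraries. The submitters' processing notes name Trim Galore, a read trimmer, HISAT2, an aligner, and the build mm10. Tool versions, counting program and strand setting were not given in the sources used here. The authors deposited estimated counts per feature, of which 19.1% to 20.8% per library were not whole, and, for 17823 features, a normalized score of unstated derivation. CPM is the estimated count over the column total. For tests, counts were rounded, filtered with filterByExpr, scaled by TMM and fitted with edgeR 4.0.16 (R 4.3.3) quasi-likelihood without a replicate term, with Benjamini-Hochberg adjustment at 0.05 over 16353 features. DESeq2 1.42.0 and limma 3.58.1 were alternatives, and limma was also run on log2(score + 1). Genes, exon lengths and overlaps came from GENCODE annotation of GRCm38 (mm10), and promoter windows from RefSeq (GRCm38.p6), with the most 5′ start used. Counting intervals are exact binomial.

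Groups and replicate numbers came from sample titles. The second deposited table and the estimated counts were not mixed in any ratio.

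The 29 genes and the gene lists were chosen with earlier results of these data known. Named genes, placeholder symbols left aside, were those with the 15 highest levels, the 15 largest ratios, any on a list, and the 4 nearest each threshold on either side. Skida1, the placeholder symbols Gm20548, Gm867 and Gm22774, and the relatives, neighbours and overlapping genes, were named after values were seen. The values of 1 of the 29 genes and of 1 gene near a threshold are not reported here.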

Additional observations from a re-analysis of the deposited data

How the results depend on the processing

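The median log2 fold change of the 29 genes stayed between 0.89 and 1.01 in 14 other settings. All 406 fold changes of single genes kept their sign, from 0.72 to 1.67, with 26 moved by at least the SD between replicates. The rule required a fold of at least 1.6 between the closest libraries, so the kept sign follows from selection and adds no support. The number called higher depended on the setting. It was 0 with edgeR (1 of 16353 features called higher) and 20 with no filter (270 of 27235 features higher and 1023 lower). DESeq2 called 10 (67 of 15017 higher and 152 lower), and limma on the scores called 27 (1662 of 17823 higher and 1838 lower). Leaving out 1 library at a time gave median log2 fold changes of 0.93 to 1.01, the lowest without MERVL shRNA replicate 2. Numbers called are left out for these fits, because 1 group then has 1 library. In those fits the lone library is assumed to vary like the other group. With a replicate block, 14 of the 29 were called, against 110 of 16353 features called higher and 628 lower. The block rests on a shared number only. Deviations of same-numbered libraries from their group means correlated at 0.223 over 16353 features, and 2 pairs are too few to show pairing. The rule took 96 genes on the second table (22 of the 29), 54 at 1 CPM, 13 at 10 CPM, 45 at a fold of 1.5 and 7 at a fold of 2. It took 35 with TMM-scaled CPM (28 of the 29). Leaving out a library gave 49 to 507 genes, the lowest without MERVL shRNA replicate 1, 57 without MERVL shRNA replicate 2, 141 without random shRNA replicate 1 and the highest without random shRNA replicate 2. Dropping a random shRNA library removes the steadiness condition and sets the fold against 1 library. The share of the genes near a MERVL copy was not run, at any of its distances or backgrounds, because copy names give no position. Depth limits the 16 genes under 10 CPM, whose lowest library holds 23.0 counts.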

Other observations

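In the deposited scores, both MERVL shRNA libraries were above both random shRNA libraries for all 29 genes. The ratio of the lower MERVL shRNA score to the higher random shRNA score ran from 1.59 to 2.38 with a median of 1.76. The scores belong to the same libraries that chose the genes, so this order largely restates the rule and adds no support. Random shRNA replicate 1 was above replicate 2 in the scores of 29 of 29 genes, by 1.08 to 1.19 times, whereas in CPM it was below replicate 2 in 15 of 29. Over the 7159 eligible genes that score ratio ran from 0.824 to 1.21 with a median of 1.00, and 49.3% were above 1. Among the 91 genes of the mirrored rule, random shRNA replicate 1 was below replicate 2 in 91, with a ratio of 0.759 to 0.939. For the 29 genes, the scores thus hold an ordering of the random shRNA libraries that their estimated counts do not. The order in CPM was not counted for the 91 genes of the mirrored rule. The sources used here do not say how the scores were made.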
